A study of Mus musculus with 12 samples.

Results

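Liver transcripts of 10 genes that are known to respond to glucocorticoids or to FoxO transcription factors are described here across fasted and refed Lpin1+/+ and Lpin1-/- liver. The 10 genes are Nr3c1, Fkbp5, Tsc22d3, Klf9, Zbtb16, Errfi1, Sgk1, Ddit4, Trim63, and Fbxo32, and they were chosen by symbol from the 22456 genes of the deposited expression matrix. The choice was made with their RPKM values in the 4 groups already known, so those levels and fold changes are a description. How many of the 10 pass the threshold of the fit over all genes is printed beside the share of all genes that do, as part of that description, and it supports nothing. RPKM is a count of reads scaled to the length of the transcript and to the mapped reads of the library.

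The livers came from 12 male BALB/cByJ mice aged 2 to 8 months, 3 in each of 4 groups: wild type (WT, Lpin1+/+) fasted for 16 hours, knockout (FLD, Lpin1-/-) fasted for 16 hours, and each genotype refed for 5 hours after the same fast. FLD stands for fatty liver dystrophy, a germline loss of the phosphatidate phosphatase lipin 1 in every tissue and not in liver alone, and the wild-type mice were littermates. All mice were housed singly for the fast, and livers were taken at 9 h on the clock after fasting and at 14 h after refeeding. Feeding state and time of day therefore cannot be told apart, and for genes with a daily rhythm this holds for every refeeding value below.

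In fasting, low insulin leaves FoxO1 and FoxO3 in the nucleus, where they activate genes of glucose production and protein breakdown. Corticosterone rises at the same time and binds the glucocorticoid receptor, which moves to the nucleus and binds inverted pairs of a short DNA half-site near its targets. Feeding raises insulin, AKT phosphorylates FoxO, and FoxO leaves the nucleus. Several genes, among them Trim63, Fbxo32, and Ddit4, are known targets of both arms, Trim63 and Fbxo32 chiefly in wasting skeletal muscle.

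The recovered depth was 93486211 to 124933929 mapped reads per library. Lpin1 was at 0.726 to 22.0 RPKM in the 6 wild-type libraries and at 0.00573 to 0.0597 RPKM in the 6 knockout libraries. Replicate 1 of fasted Lpin1+/+ liver stood apart from the other 2 of its group. Its Lpin1 level of 22.0 RPKM compared with 0.726 and 1.76 RPKM, and it held the highest value of its group in 9 of the 10 genes, as it did in 55.4% of the 11507 genes whose mean reached 0.5 RPKM. Fold changes that it moved most are therefore given with and without it. The 10 hepatocyte markers summed to 55736 to 87422 RPKM in the 12 libraries. Samples were whole liver, so fewer cells of a type and less RNA per cell cannot be told apart.

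Levels are compared between genes only per length. The RPKM values divide reads by 692 to 2390 bases for the 10 genes, which is less than the 1755 to 9468 exonic bases that GENCODE M21 gives them. On that deposited scale Errfi1 was the most abundant of the 10 in refed liver of both genotypes and in fasted Lpin1+/+ liver, and Ddit4 was the most abundant in fasted Lpin1-/- liver. A fold change is a difference of group means of log2(RPKM + 1), given with its SE from 1 limma fit of all 12 libraries and 11507 genes, and a gene is said to be called where its Benjamini-Hochberg adjusted p was under 0.05.

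**Figure D1:**
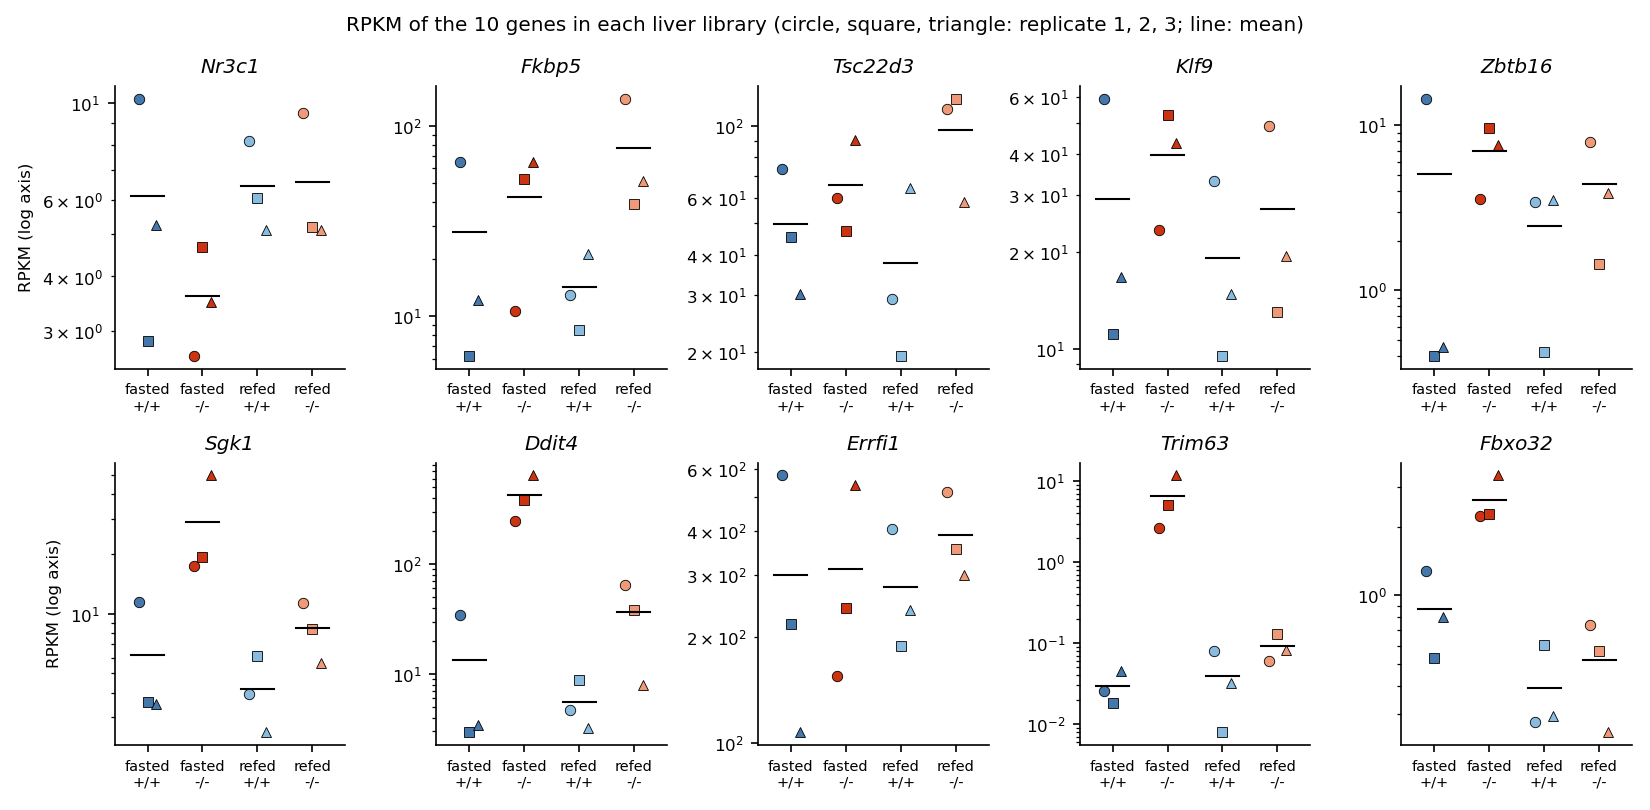
RPKM (log axis) of the 10 genes in each of the 12 libraries, grouped by feeding state and Lpin1 genotype, with 1 panel a gene, 1 symbol a library, and a line at the group mean. Ddit4, Sgk1, Trim63, and Fbxo32 lay higher in all 3 fasted Lpin1-/- libraries than in any other library, and the upper row shows replicate 1 of fasted Lpin1+/+ liver far above replicates 2 and 3 for Fkbp5, Klf9, and Zbtb16.

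Of the 10 genes, 4 stood highest in fasted Lpin1-/- liver: the mTORC1 inhibitor Ddit4, the kinase Sgk1, and the ubiquitin ligase genes Trim63 and Fbxo32. In each the 3 fasted Lpin1-/- libraries held the highest 3 values of all 12. These 4 are also the members called between genotypes in fasted liver (4 of 10 called higher, 0 lower) and between fasted and refed Lpin1-/- liver (4 of 10 called lower after refeeding, 0 higher). The background in the whole matrix was 5.63% called higher and 13.2% called lower between genotypes in fasted liver, and 2.92% called lower and 17.8% called higher on refeeding Lpin1-/- mice. Since the genes were chosen with these values known, nothing is read from the counts.

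Ddit4 (REDD1, on chromosome 10 at chr10:59949669-59951834, minus strand) encodes a stress-induced protein that restrains mTORC1. Its RPKM in replicates 1, 2, and 3 was 247, 386, and 644 in fasted Lpin1-/- liver and 34.1, 2.95, and 3.40 in fasted Lpin1+/+ liver. After refeeding it was 65.1, 38.1, and 7.89 in Lpin1-/- liver and 4.71, 8.86, and 3.23 in Lpin1+/+ liver. The fasted genotypes did not overlap, and the lowest knockout library held 247 RPKM against 34.1 in the highest wild-type library. The log2 fold change between fasted genotypes was 5.54 ± 0.863 (SE, n = 3 and 3), the highest of the 11507 genes on this scale, and 6.57 without replicate 1 of fasted Lpin1+/+ liver. On refeeding, the log2 fold change was -3.80 in Lpin1-/- liver, rank 11505 from the highest of the 11507 genes, and -0.45 ± 0.863 in Lpin1+/+ liver. The Lpin1+/+ value turned to 0.57 ± 0.720 without replicate 1 of the fasted group. The refed genotypes overlapped (log2 fold change 2.20 ± 0.863), because the lowest refed Lpin1-/- library (7.89 RPKM) lay below the highest refed Lpin1+/+ library (8.86 RPKM).

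Sgk1 (chr10:21882184-21999903, plus strand) encodes a kinase that resembles AKT and phosphorylates FoxO3 and ion channel regulators. Its RPKM in replicates 1 to 3 was 17.4, 19.3, and 49.8 in fasted Lpin1-/- liver and 11.5, 3.59, and 3.52 in fasted Lpin1+/+ liver. Refed Lpin1-/- liver held 11.3, 8.36, and 5.63 RPKM and refed Lpin1+/+ liver 3.92, 6.08, and 2.52 RPKM. Fasted Lpin1-/- liver did not overlap either the fasted Lpin1+/+ or the refed Lpin1-/- group, while the refed genotypes overlapped. The log2 fold change was 2.07 ± 0.479 between fasted genotypes, 2.55 without replicate 1 of fasted Lpin1+/+ liver, 0.88 between refed genotypes, and -1.54 on refeeding Lpin1-/- mice.

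Trim63 (MuRF1, chr4:134315120-134329629, plus strand) encodes a RING ubiquitin ligase that marks myofibrillar proteins for breakdown. Its RPKM was 2.63, 5.07, and 11.8 in fasted Lpin1-/- liver, from 289, 587, and 1362 reads. Every other library held 0.131 RPKM or less. The 3 fasted Lpin1+/+ libraries had 3, 2, and 5 reads, the refed Lpin1+/+ libraries 8, 1, and 4, and the refed Lpin1-/- libraries 8, 17, and 10. The transcript was thus near the limit of detection in 9 of 12 libraries, and it was well measured only in fasted Lpin1-/- liver. Scaled to mapped reads, the summed reads of fasted Lpin1-/- liver (2238) were 222-fold those of fasted Lpin1+/+ liver (10), with a 95% exact interval of 120 to 463 that covers counting error only. Against refed Lpin1-/- liver (35 reads) the ratio was 72.2 (51.7 to 103.9). On the log2(RPKM + 1) scale the fold changes were 2.67 ± 0.335 between fasted genotypes and -2.59 on refeeding Lpin1-/- mice. That scale understates low genes, and with 0.1 in place of 1 the same differences were 5.42 and -4.87.

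Fbxo32 (atrogin-1, chr15:58175879-58214932, minus strand) encodes the substrate-binding subunit of another ubiquitin ligase of muscle wasting. It was low in every group, with 2.23, 2.28, and 3.38 RPKM in fasted Lpin1-/- liver and 1.28, 0.530, and 0.803 RPKM in fasted Lpin1+/+ liver. Refed Lpin1-/- liver held 0.743, 0.570, and 0.250 RPKM and refed Lpin1+/+ liver 0.278, 0.604, and 0.294 RPKM. Only fasted Lpin1-/- liver lay clear of all other libraries, and the other 3 groups overlapped in part. The summed reads of fasted Lpin1-/- liver were 3.00-fold those of fasted Lpin1+/+ liver scaled to mapped reads (898 and 297 reads, 95% exact interval 2.63 to 3.43, counting error only). The log2 fold changes were 0.96 ± 0.208 between fasted genotypes, -1.25 on refeeding Lpin1-/- mice, and -0.42 on refeeding Lpin1+/+ mice.

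Markers of skeletal muscle, the tissue in which Trim63 and Fbxo32 are best known, stayed low in all libraries. Of 15 such markers, 2 had a mean of at least 0.5 RPKM (Des and Mylpf). Their sum over the 15 was 4.04 to 4.95 RPKM in fasted Lpin1-/- liver, 2.50 to 3.63 in fasted Lpin1+/+ liver, 3.70 to 9.18 in refed Lpin1+/+ liver, and 2.97 to 3.79 in refed Lpin1-/- liver. In fasted Lpin1-/- liver Acta1 reached 0.0689 RPKM, Ckm 0.0681, and Myh4 0.00671, against 2.63 to 11.8 RPKM of Trim63 in the same libraries. Des, Tnnt3, Tnnc2, Actn3, Pvalb, and Atp2a1 lay higher in fasted Lpin1-/- than in fasted Lpin1+/+ liver without overlap. Tnnt3 was at 0.0396 to 0.291 against 0 to 0.0102 RPKM, and Des at 2.46 to 3.52 against 1.40 to 2.28 RPKM. The other markers of the 15 overlapped between these groups. The part of muscle cells in the Trim63 and Fbxo32 levels was not tested.

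The promoter windows of Trim63 and Sgk1 are shown because each holds glucocorticoid receptor half-sites in an inverted pair, that of Klf9 because it holds a FoxO motif, and that of Ddit4 because Ddit4 had the highest fold change on the log2(RPKM + 1) scale. They are RefSeq windows on GRCm38.p6, from 250 bases before to 50 bases after an annotated start, 5′ to 3′ on the gene's strand, with matches in capitals. The half-site searched was TGTTCT, which reads AGAACA on the opposite strand, the inverted pair GAACANNNTGTTC, and the FoxO motif TGTTTAC, which reads GTAAACA on the opposite strand. A half-site inside an inverted pair is counted in both.

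Trim63, chr4:134314870-134315169, plus strand: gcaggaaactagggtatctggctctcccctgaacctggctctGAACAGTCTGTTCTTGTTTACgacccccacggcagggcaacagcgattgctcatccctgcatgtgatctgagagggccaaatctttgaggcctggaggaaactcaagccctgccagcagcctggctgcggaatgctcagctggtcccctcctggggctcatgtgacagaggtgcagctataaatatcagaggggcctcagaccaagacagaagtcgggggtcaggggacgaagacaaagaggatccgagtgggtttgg
Sgk1, chr10:21993640-21993939, plus strand: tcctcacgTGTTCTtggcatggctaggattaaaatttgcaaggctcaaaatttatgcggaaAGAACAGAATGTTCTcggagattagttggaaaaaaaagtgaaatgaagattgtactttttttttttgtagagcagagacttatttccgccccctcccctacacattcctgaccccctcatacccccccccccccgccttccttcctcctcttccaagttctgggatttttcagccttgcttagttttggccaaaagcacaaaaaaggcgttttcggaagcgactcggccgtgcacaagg
Klf9, chr19:23140976-23141275, plus strand: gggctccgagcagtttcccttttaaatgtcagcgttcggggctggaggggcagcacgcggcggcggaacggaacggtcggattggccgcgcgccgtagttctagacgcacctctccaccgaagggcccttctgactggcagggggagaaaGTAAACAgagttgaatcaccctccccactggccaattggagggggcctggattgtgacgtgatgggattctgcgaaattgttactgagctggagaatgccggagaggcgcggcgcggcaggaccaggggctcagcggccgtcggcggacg
Ddit4, chr10:59951721-59952020, minus strand: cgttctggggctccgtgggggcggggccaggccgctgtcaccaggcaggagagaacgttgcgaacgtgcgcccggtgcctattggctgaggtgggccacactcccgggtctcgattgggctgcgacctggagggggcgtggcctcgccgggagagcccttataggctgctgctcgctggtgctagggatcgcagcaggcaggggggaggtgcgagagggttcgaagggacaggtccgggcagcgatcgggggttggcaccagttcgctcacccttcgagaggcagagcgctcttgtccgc

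In the Trim63 window the inverted pair (positions -208 to -196 from the start, counted with no 0) shares bases with the half-site at -200 to -195, and the FoxO motif follows it directly at -194 to -188. The Sgk1 window, 1 of 6 annotated Sgk1 starts, holds the inverted pair at -188 to -176 with both outer bases matched, and a further half-site at -242 to -237. Of 32817 distinct RefSeq windows, 19% held a half-site, 0.0579% (19 windows) the inverted pair, 3.65% the FoxO motif, and 0.871% a half-site and a FoxO motif together. Of the 10 genes, 7 matched a window by symbol, with 15 windows in all. Of those windows, 5 held a half-site (3 of Sgk1, 1 of Tsc22d3, and that of Trim63), 2 the inverted pair, and 2 the FoxO motif (Trim63 and Klf9). The Ddit4, Fkbp5, and Errfi1 windows held none of these letters. A match is a description of the sequence and not a binding site.

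The receptor and its targets with a role in feedback or transcription did not separate the groups in the same way. Nr3c1, Fkbp5, Tsc22d3, Klf9, Zbtb16, and Errfi1 overlapped between fasted genotypes, and in 5 of the 6 the highest value of fasted Lpin1+/+ liver was that of replicate 1 by 1.95-fold or more over the next. For Tsc22d3 that ratio was 1.63.

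**Figure D2:**
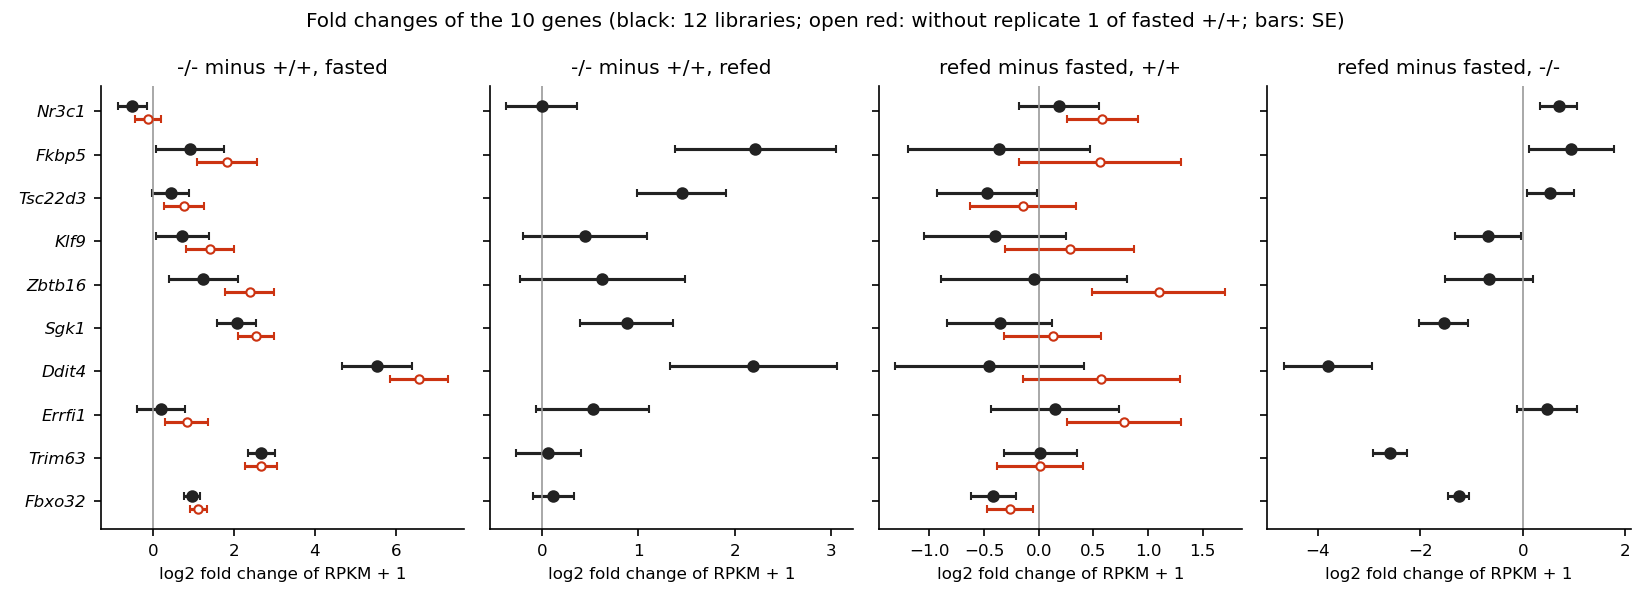
Log2 fold changes of RPKM + 1 for the 10 genes in the genotype contrast of fasted and refed liver and in the feeding contrast of each genotype, with bars for the SE. Black points use 12 libraries, and open red points leave out replicate 1 of fasted Lpin1+/+ liver in the 2 contrasts that it enters. Ddit4 lies at 5.54 with and 6.57 without that library between fasted genotypes, and Zbtb16 at 1.24 and 2.39.

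Nr3c1, on chromosome 18, encodes the glucocorticoid receptor. Its RPKM was 10.2, 2.85, and 5.25 in fasted Lpin1+/+ liver and 2.63, 4.68, and 3.49 in fasted Lpin1-/- liver. Refed Lpin1+/+ liver held 8.18, 6.06, and 5.11 RPKM and refed Lpin1-/- liver 9.47, 5.19, and 5.10 RPKM. It was the only member with a lower mean in fasted Lpin1-/- than in fasted Lpin1+/+ liver, but the groups overlapped (log2 fold change -0.51 ± 0.366, and -0.12 ± 0.322 without replicate 1). Refed Lpin1-/- liver lay above fasted Lpin1-/- liver without overlap, with 5.10 RPKM or more against 4.68 or less, and the log2 fold change was 0.70 ± 0.366.

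Fkbp5 (chr17:28399094-28517527, minus strand) encodes an HSP90 co-chaperone that lowers the affinity of the receptor for its hormone. Its RPKM was 65.1, 6.22, and 12.2 in fasted Lpin1+/+ liver, 10.7, 52.7, and 64.6 in fasted Lpin1-/- liver, 13.0, 8.47, and 21.2 in refed Lpin1+/+ liver, and 139, 39.0, and 51.6 in refed Lpin1-/- liver. It was the only member whose refed genotypes did not overlap, the lowest knockout library (39.0 RPKM) lying above the highest wild-type library (21.2 RPKM). The log2 fold change there was 2.21 ± 0.835, against 0.91 ± 0.835 between fasted genotypes and 1.83 ± 0.742 without replicate 1 of fasted Lpin1+/+ liver. Within groups of 3 the highest value exceeded the lowest by 2.50-fold to 10.5-fold.

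Tsc22d3 (GILZ, chrX:140539528-140600659, minus strand) encodes a leucine zipper protein through which glucocorticoids damp inflammation. Its RPKM was 73.8, 45.3, and 30.2 in fasted Lpin1+/+ liver, 59.9, 47.3, and 90.5 in fasted Lpin1-/- liver, 29.2, 19.5, and 64.3 in refed Lpin1+/+ liver, and 113, 121, and 58.3 in refed Lpin1-/- liver. The log2 fold change between genotypes was 0.44 ± 0.459 in fasted and 1.45 ± 0.459 in refed liver, and both pairs of groups overlapped.

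Klf9 (chr19:23141226-23168134, plus strand) and Zbtb16 (PLZF, chr9:48654297-48836222, minus strand) encode zinc finger transcription factors. Klf9 was at 59.4, 11.1, and 16.7 RPKM in fasted Lpin1+/+ liver, 23.3, 53.1, and 43.2 in fasted Lpin1-/- liver, 33.0, 9.52, and 14.8 in refed Lpin1+/+ liver, and 49.0, 13.0, and 19.4 in refed Lpin1-/- liver. Zbtb16 was at 14.4, 0.403, and 0.455 RPKM in fasted Lpin1+/+ liver and at 3.59, 9.61, and 7.57 in fasted Lpin1-/- liver. Replicate 1 thus held 31.7-fold as much Zbtb16 as the next library of its group. In refed liver Zbtb16 was at 3.45, 0.426, and 3.52 RPKM in Lpin1+/+ mice and at 7.87, 1.44, and 3.91 RPKM in Lpin1-/- mice. The log2 fold change between fasted genotypes was 0.72 ± 0.646 for Klf9 and 1.24 ± 0.854 for Zbtb16, and 1.40 ± 0.591 and 2.39 ± 0.609 without replicate 1.

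Errfi1 (MIG6, chr4:150853919-150868892, plus strand) encodes a feedback inhibitor of the EGF receptor. Its RPKM was 574, 218, and 107 in fasted Lpin1+/+ liver, 155, 241, and 540 in fasted Lpin1-/- liver, 405, 188, and 238 in refed Lpin1+/+ liver, and 514, 354, and 299 in refed Lpin1-/- liver. No pair of groups was separated. The log2 fold change between fasted genotypes was 0.19 ± 0.586, but 0.83 ± 0.523 without replicate 1 of fasted Lpin1+/+ liver, -0.38 without its replicate 3, and -0.30 without replicate 3 of fasted Lpin1-/- liver. It was 0.53 ± 0.586 between refed genotypes and 0.48 on refeeding Lpin1-/- mice.

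On refeeding Lpin1+/+ mice the direction of 5 members turned without replicate 1 of the fasted group. On the log2 scale the fold change went from -0.36 to 0.56 ± 0.742 for Fkbp5, from -0.40 to 0.28 ± 0.591 for Klf9, from -0.04 to 1.10 ± 0.609 for Zbtb16, and from -0.36 to 0.13 ± 0.445 for Sgk1, as for Ddit4 above. Errfi1 went from 0.14 to 0.78 ± 0.523 (and to -0.43 without replicate 3), Nr3c1 from 0.18 to 0.58 ± 0.322, Tsc22d3 from -0.47 to -0.15 ± 0.485, and Fbxo32 from -0.42 to -0.26 ± 0.210. Of the 10 genes, 3 had a positive value with that library and 8 without it.

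Across all 10 genes, 0 were called and 0 did not overlap on refeeding Lpin1+/+ mice, where 1.52% of all genes were called higher and 0.2% lower, and where groups lay apart for 14.6% (higher) and 3.46% (lower) of genes. At an unadjusted p under 0.05 (limma) the members again numbered 0 there, against 1594 of all 11507 genes. In Lpin1-/- mice 1 member lay clear above (Nr3c1) and 4 clear below after refeeding, against 37.5% and 9.26% of all genes. Between fasted genotypes 4 lay clear above and 0 below, against 10.7% and 22.2%. Between refed genotypes 1 lay clear above (Fkbp5) and 0 below, against 14.8% and 19.1%, and 0 of 10 were called, against 2.6% higher and 4.07% lower. At an unadjusted p under 0.05 (limma) the members numbered 3 of 10 there, beside 2585 of all 11507 genes. The interaction, the difference between the 2 feeding responses, was called for 1 member, against 0.487% called lower and 0.791% called higher. This was Trim63 (-2.60 ± 0.474), whose feeding response was lower in Lpin1-/- than in Lpin1+/+ mice, a fall on refeeding. Trim63 reached the 0.5 RPKM minimum only through fasted Lpin1-/- liver and was chosen with these values known, so nothing is read from that count. The median log2 fold change of the 10 members was 0.93 between fasted genotypes, 0.58 between refed genotypes, -0.67 on refeeding Lpin1-/- mice, and -0.36 on refeeding Lpin1+/+ mice. The medians over all genes were -0.14, -0.07, 0.25, and 0.19. Without replicate 1 of fasted Lpin1+/+ liver the median of the members was 1.62 between fasted genotypes and turned to 0.42 on refeeding Lpin1+/+ mice, with -0.07 and 0.26 over all genes. When each library was rescaled by its median ratio, the medians over all genes moved to 0.02, -0.02, -0.03, and 0.02, and Ddit4, Sgk1, Trim63, and Fbxo32 kept their directions between fasted genotypes and on refeeding Lpin1-/- mice.

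Over the 12 libraries Sgk1, Ddit4, Trim63, and Fbxo32 varied together in log2(RPKM + 1), with r between 0.86 and 0.97 in each of their pairs. Pearson's r is a description here, since libraries share their groups and replicate 1 of fasted Lpin1+/+ liver weighs on it. Sgk1 and Ddit4 were the closest pair (r = 0.97), and each was the gene most like the other among all 11507. Klf9 and Zbtb16 followed (r = 0.91), and Fkbp5 ran with Zbtb16 (0.79), Tsc22d3 (0.73), and Errfi1 (0.72). Nr3c1 ran against Trim63 (r = -0.49) and Fbxo32 (-0.37).

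**Figure D3:**
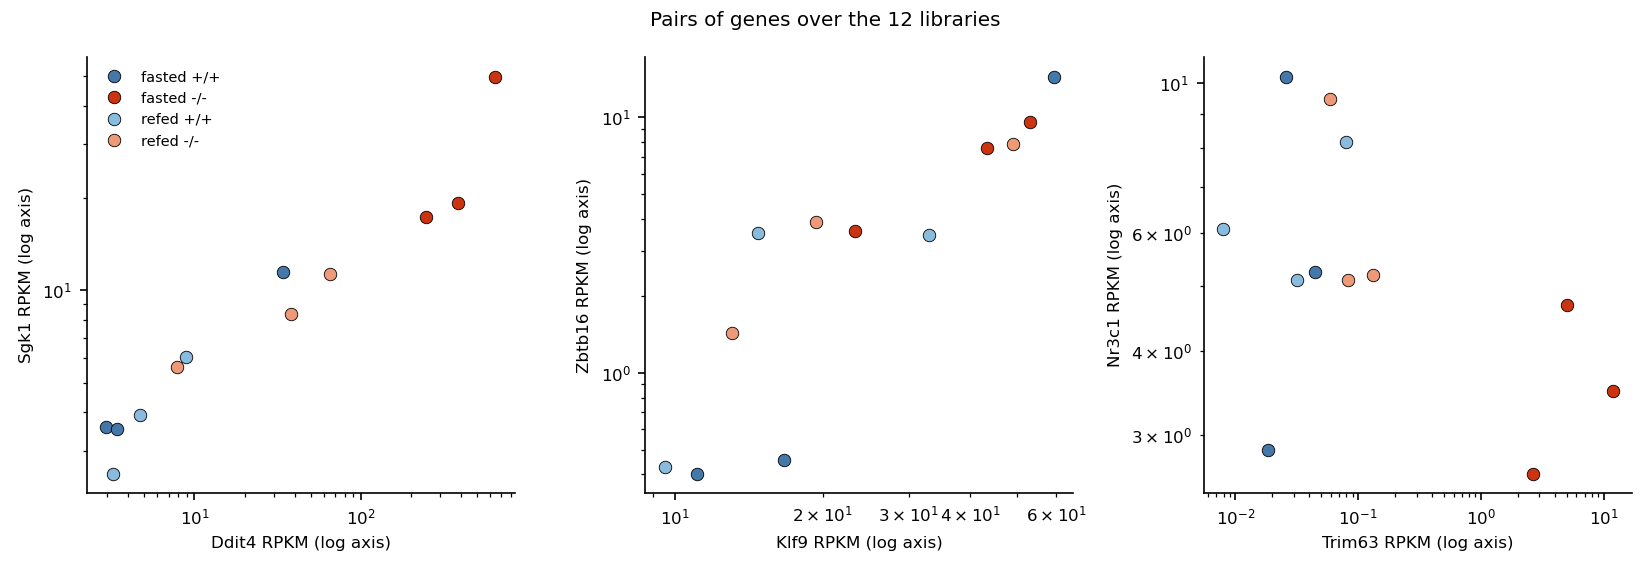
RPKM (log axes) of 3 pairs of genes in the 12 libraries, coloured by group. Ddit4 and Sgk1 rise together over all libraries (r = 0.97 on the log2 scale), Klf9 and Zbtb16 follow each other at the upper end (r = 0.91), and Nr3c1 against Trim63 (r = -0.49) shows the 3 fasted Lpin1-/- libraries set apart by Trim63.

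The genes most like each member were as follows. Ddit4 ran next closest to Cebpb (r = 0.96), a transcription factor of the fasting liver, and Sgk1 to Fst (0.95), which encodes the activin antagonist follistatin. Trim63 ran closest to Map2k6 (0.98), a p38 kinase activator with means of 29.4 RPKM in fasted Lpin1-/- liver and 2.08 to 2.95 RPKM in the other groups, and to Spata7 (0.97). Fbxo32 ran closest to Setdb2 (0.98), with 65.9 RPKM in fasted Lpin1-/- and 8.67 in fasted Lpin1+/+ liver, and to the small GTPase gene Rnd1 (0.95). Nr3c1 ran closest to Setd5 (0.99) and Msl2 (0.98), Fkbp5 to Stam (0.97) and Dcaf10 (0.96), Klf9 to D230025D16Rik (0.94) and Lrp6 (0.93), and Zbtb16 to Med26 (0.93) and Klf9 (0.91). Errfi1 had looser neighbours, Nepro (0.86) and Slc43a1 (0.85), and St3gal5 (0.84) was among those of Tsc22d3.

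Other genes of the pathways came from lists that leave out the 10 members. The lists were drawn up with earlier results of these data known, so their counts are no independent evidence of a direction. Between fasted genotypes, glucocorticoid targets were higher in Lpin1-/- liver: 17 of 26 tested were called higher and 0 lower, with a median log2 fold change of 2.36 against -0.14 over all genes. FoxO targets went the same way in part, with 10 of 32 called higher and 2 lower and a median of 0.59. Among the listed targets, Pck1 (-0.54 ± 0.757, limma adjusted p = 0.661) and G6pc (0.12 ± 0.700, adjusted p = 0.923), both of glucose production, were not called. Neither was Ppargc1a (1.36 ± 0.485, adjusted p = 0.0726). The background was 5.63% higher and 13.2% lower. Without replicate 1 of fasted Lpin1+/+ liver the counts were 16 and 0 for glucocorticoid targets and 11 and 2 for FoxO targets. The largest rises were in Igfbp1, an insulin-repressed binding protein of IGFs on both lists (4.77 ± 1.02, limma adjusted p = 0.00905), and Gadd45g, a stress sensor (4.71 ± 0.623, adjusted p = 8.4e-04). On the FoxO list the cell cycle inhibitor Cdkn1a came next after Igfbp1 (4.24 ± 0.771, adjusted p = 0.00392). Catalase (Cat, -1.72 ± 0.384, adjusted p = 0.0108) and Mttp, which loads lipid onto apolipoprotein B (-1.08 ± 0.268, adjusted p = 0.0176), were lower. Mttp lost the threshold without replicate 3 of fasted Lpin1+/+ or replicate 1 of fasted Lpin1-/- liver (adjusted p up to 0.0647), and Igfbp1, Gadd45g, Cdkn1a, and Cat kept it without each library in turn.

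Igfbp1 shows the range behind these values. It was at 961, 1138, and 6961 RPKM in fasted Lpin1-/- liver, 283, 65.6, and 18.8 in fasted Lpin1+/+ liver, 364, 42.6, and 78.5 in refed Lpin1-/- liver, and 13.5, 7.45, and 7.91 in refed Lpin1+/+ liver. The fasted genotypes did not overlap, although 1 fasted Lpin1-/- library (6961 RPKM) lay far above the other two and 1 fasted Lpin1+/+ library (283 RPKM) far above the rest of its group.

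In refed liver, 8 of 26 glucocorticoid targets were called higher in Lpin1-/- mice and 0 lower (median 1.47 against -0.07 over all genes), and 3 of 32 FoxO targets were called higher and 0 lower (median 0.32). Without replicate 1 of fasted Lpin1+/+ liver these counts were 11 and 5, with 0 lower in both. The background between refed genotypes was 2.6% called higher and 4.07% called lower. The metallothioneins Mt2 (5.04 ± 0.597, adjusted p = 0.00125) and Mt1 (4.96 ± 0.527, adjusted p = 8.8e-04), which bind zinc and are induced by glucocorticoids, led the first list. Mt1 was at 10108, 5042, and 5254 RPKM in refed Lpin1-/- liver and at 198, 380, and 115 RPKM in refed Lpin1+/+ liver. The mitophagy receptor Bnip3 (2.28 ± 0.367, adjusted p = 0.00643) and the lipase Pnpla2 (2.06 ± 0.365, adjusted p = 0.00926) led the second. All of Mt1, Mt2, Bnip3, and Pnpla2 stayed past the threshold without each library in turn.

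**Figure D4:**
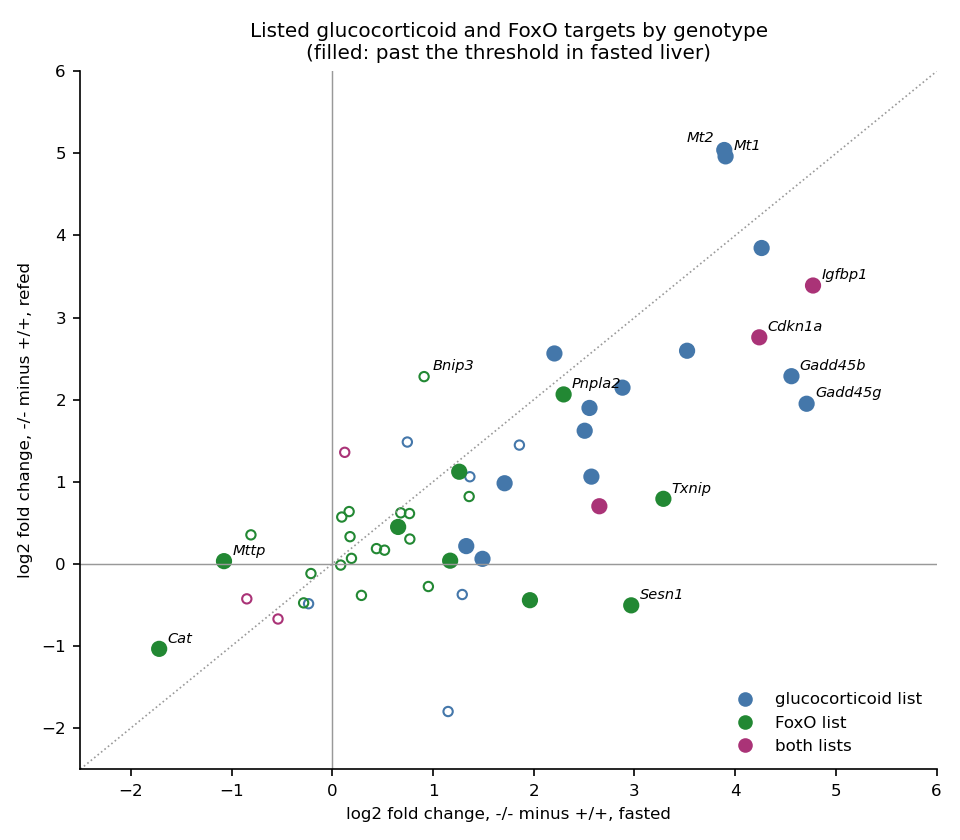
Log2 fold change of RPKM + 1 between Lpin1-/- and Lpin1+/+ liver in fasted (x axis) and refed (y axis) mice for the 52 listed glucocorticoid and FoxO targets tested, coloured by list, with filled points for those called in fasted liver and a dotted line of equal change. Mt1 and Mt2 lie high on both axes (3.89 or more), whereas Sesn1 (2.97 fasted, -0.51 refed) and Txnip (3.29 fasted, 0.79 refed) lie near the x axis.

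On refeeding Lpin1-/- mice, 8 of 26 glucocorticoid targets fell and 1 rose (median -1.03 against 0.25 over all genes), and 10 of 32 FoxO targets fell and 1 rose (median -0.63). The background was 2.92% lower and 17.8% higher. Gadd45b fell by 3.05 on the log2 scale (SE 0.370, adjusted p = 6.9e-04), and Sesn1, a leucine sensor that restrains mTORC1, fell by 3.31 (SE 0.335, adjusted p = 3.5e-04). Igfbp1 fell by 4.19 (SE 1.02, adjusted p = 0.0156) and lost the threshold without replicate 2 or replicate 3 of refed Lpin1-/- liver (adjusted p up to 0.0703). The clock gene Per2 rose by 1.58 (SE 0.280, adjusted p = 0.00373) and Mttp by 0.96 (SE 0.268, adjusted p = 0.0279). The Mttp call was lost without replicate 1 of fasted Lpin1-/- or replicates 2 or 3 of refed Lpin1-/- liver (adjusted p up to 0.107). Counted over both lists, 18 of 52 were called, and 10 without replicate 3 of refed Lpin1-/- liver.

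On refeeding Lpin1+/+ mice, 4 of the 52 listed targets were called: Mt2 fell by 3.20 (SE 0.597, adjusted p = 0.0248), Mt1 by 2.49 (SE 0.527, adjusted p = 0.0384), and Ccng2, a FoxO target that slows the cell cycle, by 1.45 (SE 0.263, adjusted p = 0.0216), while Per2 rose by 1.83 (SE 0.280, adjusted p = 0.0120). Of all genes, 1.52% were called higher and 0.2% lower there. The count of listed targets was 0 without replicate 2 of fasted or replicate 3 of refed Lpin1+/+ liver. It was 1 without replicate 1 or 3 of fasted or replicate 1 of refed Lpin1+/+ liver. The Ccng2 call was lost without any of 5 libraries (adjusted p up to 0.0945). On refeeding Lpin1-/- mice Ccng2 fell by 1.60 (SE 0.263, adjusted p = 0.00256), a call kept without each library in turn. Mt2 fell there by 2.05 (SE 0.597, adjusted p = 0.0326), and Mt1 by 1.43 without a call (SE 0.527, adjusted p = 0.0747). The interaction was called for 2 of the 52, Sesn1 and Txnip, both lower, and for 0 of 26 glucocorticoid targets. Of all genes, 0.487% were called lower and 0.791% higher. At an unadjusted p under 0.05 (limma) the glucocorticoid targets numbered 6 of 26, beside 2082 of all 11507 genes. Txnip, which blocks thioredoxin and glucose uptake, was at 181, 196, and 418 RPKM in fasted Lpin1-/- liver and at 12.2 to 36.0 RPKM in the other 9 libraries.

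Signalling genes upstream of these targets were counted in the same way. Of 20 tested genes of glucocorticoid signalling (receptor chaperones and enzymes that make or clear the hormone), 1 was called lower and 0 higher between fasted genotypes, beside 13.2% and 5.63% of all genes. This was Akr1d1, a steroid reductase (-1.06 ± 0.241, adjusted p = 0.0120), which stayed past the threshold without each library in turn. It did not stay past it under every other alternative (adjusted p up to 0.0608). On refeeding Lpin1-/- mice the chaperone genes Stip1 (1.58 ± 0.354, adjusted p = 0.0104) and Fkbp4 (1.34 ± 0.373, adjusted p = 0.0268) rose, as did Ptges3 (3 of 20, beside 17.8% of all genes), and the steroid reductase Srd5a1 fell by 1.03 (SE 0.204, adjusted p = 0.00604). Stip1 lost the call without replicate 2 of refed Lpin1-/- liver (adjusted p = 0.0521), and Fkbp4 did so without any of 5 libraries (up to 0.109). On refeeding Lpin1+/+ mice Stip1 rose by 1.41 (SE 0.354, adjusted p = 0.0811) and Fkbp4 by 1.37 (SE 0.373, adjusted p = 0.106). Neither was called there, although both lay apart without overlap. Srd5a1 was also lower in refed Lpin1-/- than in refed Lpin1+/+ liver (-0.87 ± 0.204, adjusted p = 0.0303), a call lost without any of 5 libraries (up to 0.0991). In both contrasts Srd5a1 was 1 of 20 called lower, beside 2.92% of all genes on refeeding Lpin1-/- mice and 4.07% between refed genotypes.

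Of 21 tested genes from insulin to FoxO, 1 was called higher and 1 lower between fasted genotypes, beside 5.63% and 13.2% of all genes. Foxo3 was higher in Lpin1-/- liver (1.96 ± 0.461, adjusted p = 0.0138), at 12.1, 15.5, and 23.0 RPKM against 8.59, 1.51, and 2.65 RPKM, and lost the call without replicate 3 of fasted Lpin1+/+ liver (0.0607). Akt2 was lower (-0.82 ± 0.238, adjusted p = 0.0333) and lost the call without any of 5 libraries (up to 0.119). On refeeding Lpin1-/- mice Foxo3 fell by 2.20 on the log2 scale (SE 0.461, adjusted p = 0.00795), and Pdpk1, Pik3r1, Akt1, Akt2, and Ywhab rose (5 of 21 higher and 1 lower, beside 17.8% and 2.92% of all genes). The calls of Pdpk1 (1.25 ± 0.404, adjusted p = 0.0486) and Pik3r1 (1.04 ± 0.300, adjusted p = 0.0305) were lost without any of 10 and of 4 libraries (adjusted p up to 0.178 and 0.110). On refeeding Lpin1+/+ mice Pik3r1 rose by 0.85 without overlap (SE 0.300, adjusted p = 0.223) and was not called. Pdpk1 overlapped there (-0.20 ± 0.404, adjusted p = 0.866).

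Around Ddit4, 4 of 19 tested mTORC1 genes were called higher and 1 lower between fasted genotypes, beside 5.63% and 13.2% of all genes. Txnip (3.29 ± 0.359, adjusted p = 3.6e-04) and Sesn1 (2.97 ± 0.335, adjusted p = 4.0e-04) rose most, with Atf4 and Eif4ebp1, and Tbc1d7, a subunit of the TSC complex, was lower (-1.14 ± 0.231, adjusted p = 0.00703). All 3 of Txnip, Sesn1, and Tbc1d7 kept the call without each library in turn. On refeeding Lpin1-/- mice Txnip fell by 3.15 (SE 0.359, adjusted p = 5.8e-04), and the mTORC1 subunit gene Mlst8 (0.83 ± 0.191, adjusted p = 0.0120) and the S6 kinase gene Rps6kb1 (0.80 ± 0.239, adjusted p = 0.0357) rose. In that contrast 3 of 19 were called higher and 4 lower, beside 17.8% and 2.92% of all genes. Mlst8 lost the call without replicate 2 of refed Lpin1-/- liver (0.0540) and Rps6kb1 without any of 7 libraries (up to 0.126). On refeeding Lpin1+/+ mice Mlst8 rose by 0.59 without overlap (SE 0.191, adjusted p = 0.184) and was not called. Rps6kb1 overlapped there (0.06 ± 0.239, adjusted p = 0.796). In Lpin1+/+ liver Ddit3, a stress transcription factor, rose on refeeding (1.70 ± 0.335, adjusted p = 0.0299), a call lost without any of 8 libraries (up to 0.105). It was 1 of 19 called higher there, beside 1.52% of all genes.

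Around Errfi1, 12 of 19 listed genes of the EGF receptor and its feedback were tested. The receptor inhibitor Lrig1 was lower in fasted Lpin1-/- liver (-1.28 ± 0.231, adjusted p = 0.00382) and rose on refeeding those mice (1.60 ± 0.231, adjusted p = 0.00146), as did the ERK phosphatase gene Dusp6 (1.68 ± 0.240, adjusted p = 0.00135). All of these calls held without each library in turn. They were 1 of 12 called lower between fasted genotypes and 2 of 12 called higher on refeeding Lpin1-/- mice. The shares of all genes were 13.2% and 17.8%, so nothing is read from these counts. Of 10 genes around Sgk1, 1 was called lower in fasted Lpin1-/- liver, beside 13.2% of all genes. This was its substrate gene Ndrg2 (-0.9999 ± 0.256, adjusted p = 0.0198), a call lost without replicate 3 of fasted Lpin1+/+ or replicate 1 of fasted Lpin1-/- liver (up to 0.0808).

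Of 25 tested paralogs of the 10 genes, 4 were called higher in fasted Lpin1-/- liver, beside 5.63% of all genes, and all 4 were of the KLF family, with Klf6 (1.94 ± 0.507, adjusted p = 0.0217) and Klf2 (1.41 ± 0.416, adjusted p = 0.0362) among them. Those calls were lost without any of 3 and of 8 libraries (up to 0.0743 and 0.116). On refeeding Lpin1-/- mice Klf6 fell by 1.75 (SE 0.507, adjusted p = 0.0317) and Klf11 by 1.31 (SE 0.335, adjusted p = 0.0186), and Fbxo25, the closest paralog of Fbxo32, rose by 0.51 (SE 0.155, adjusted p = 0.0364). These calls were lost without any of 5, of 2, and of 8 libraries (up to 0.109, 0.0766, and 0.130). In that contrast 3 of 25 paralogs were called lower and 2 higher, beside 2.92% and 17.8% of all genes. In refed liver Fbxo31 was higher in Lpin1-/- mice (2.09 ± 0.413, adjusted p = 0.0147) and lost the call without replicate 1 or 2 of refed Lpin1-/- liver (up to 0.0593). It was 1 of 25 called higher there, beside 2.6% of all genes.

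Markers of other cell types moved with some of these contrasts. Of 7 adipocyte markers 2 were tested, and Fabp4 was higher in fasted Lpin1-/- liver (2.65 ± 0.339, adjusted p = 7.1e-04), at 68.5 to 96.1 RPKM against 10.2 to 17.9 RPKM, and fell on refeeding those mice by 1.35 (SE 0.339, adjusted p = 0.0175). That fall was not called without replicate 1 or 2 of fasted or replicate 1 of refed Lpin1-/- liver (up to 0.0648). The 7 markers summed to 73.6 to 105.7 RPKM in fasted Lpin1-/- and 14.5 to 26.5 in fasted Lpin1+/+ liver, while Lep was at 0 in all 12 libraries and Adipoq at 0.0231 RPKM or less in fasted Lpin1-/- liver. Of 8 Kupffer cell markers 1, Clec4f, fell on refeeding Lpin1-/- mice (-1.28 ± 0.343, adjusted p = 0.0235), 1 of 8 endothelial markers, Lyve1, was higher in fasted Lpin1-/- liver (1.77 ± 0.459, adjusted p = 0.0208), and 1 of 10 hepatocyte markers, Apob, was lower there (-1.12 ± 0.301, adjusted p = 0.0249). Each of these 3 calls was lost without any of 3 or 4 libraries (up to 0.0874, 0.0724, and 0.0862). Of all genes, 5.63% were called higher and 13.2% lower between fasted genotypes, and 2.92% lower on refeeding Lpin1-/- mice. Of 8 stellate, 5 biliary, and 7 lymphocyte markers tested, 0 were called between fasted genotypes. At an unadjusted p under 0.05 (limma) they numbered 1, 1, and 0, beside 3802 of all 11507 genes. The endothelial markers numbered 3 of 8 by that measure. Pecam1 (4.22 to 6.51 against 1.26 to 3.58 RPKM) and Stab1 (5.51 to 7.31 against 1.82 to 5.34) lay apart like Lyve1. Stab2, Kdr, Clec4g, Cdh5, and Oit3 overlapped. Lyve1 also lay apart between refed genotypes (4.39 to 9.67 against 0.418 to 2.73 RPKM) and was not called there. The 8 stellate markers summed to 199 to 291 RPKM in fasted Lpin1-/- liver and 67.3 to 160.0 in fasted Lpin1+/+ liver, without overlap. That sum was mostly Dcn, at 179 to 264 against 61.8 to 144 RPKM. Des also lay apart, and Lrat, Reln, Col1a1, Col3a1, Pdgfrb, and Hgf overlapped. The 8 Kupffer cell markers summed to 224 to 586 RPKM in fasted and 69.9 to 169 in refed Lpin1-/- liver, also without overlap. Their median log2 fold change on refeeding was -1.47. At an unadjusted p under 0.05 (limma) they numbered 4 of 8, beside 4150 of all 11507 genes. Biliary markers summed to 24.9 to 451.6 RPKM in fasted Lpin1-/- and 32.1 to 45.8 in fasted Lpin1+/+ liver. Most of that was Spp1, at 22.3 to 430 against 30.7 to 42.9 RPKM. The part of any of these cell types in the results was not tested.

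Exon usage was not among the values by which the 10 genes were chosen, although a ratio follows the level of its gene where 1 of the 2 forms is at 0 reads. For each skipped-exon event, reads that include the middle exon and reads that join its flanks were counted by the authors, and the log2 ratio of the 2 per effective length was compared between genotypes with limma, with p-values adjusted over all events of the table. An event was tested where each library had 10 counts or more, which left 69644 in fasted and 65231 in refed liver. The 10 genes had 71 events in fasted liver, of which 60 were tested and 11 were called in 4 genes (Errfi1, Tsc22d3, Fkbp5, and Ddit4), 7 towards inclusion in Lpin1-/- liver and 4 towards skipping. The background was 11.3% of events called. In refed liver 31 of 41 events were tested and 0 were called, against a background of 0.97% (limma, with 11 of the 31 at an unadjusted p under 0.05). The share of all events under that unadjusted p is not given here, so nothing is read from the 11 of 31. Events that share an exon or a junction are not independent of each other, so the 11 called in fasted liver count fewer separate exons.

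In Errfi1, a 77-base exon at chr4:150863473-150863549, between the exons at chr4:150855073-150855271 and chr4:150865075-150865269, is not an exon of the gene in GENCODE M21. Between these flanks it was included in 0.118% to 0.682% of transcripts in fasted Lpin1+/+ liver and in 10.04% to 17.9% in fasted Lpin1-/- liver. The counts were 39, 11, and 2 including against 2665, 1376, and 791 skipping reads in Lpin1+/+ liver, and 335, 908, and 822 against 1408, 1949, and 2838 in Lpin1-/- liver. The log2 ratio was higher by 5.44 ± 0.758 (adjusted p = 0.00111), and the adjusted p lay between 4.99e-04 and 0.0240 under all 9 alternatives. In refed liver, between the same flanks, it was included in 0.301% to 0.790% of Lpin1+/+ and 0.818% to 1.86% of Lpin1-/- transcripts (1.33 ± 0.688, adjusted p = 0.430). Joined instead to the upstream exon at chr4:150853919-150854105, the same 77 bases were included in 10.2%, 10.5%, and 23.8% of transcripts in fasted Lpin1+/+ liver and in 74.6%, 86.5%, and 69.6% in fasted Lpin1-/- liver. That fasted event was not tested, since 1 Lpin1+/+ library had 2 including and 3 skipping reads. In refed liver those flanks gave 4.44% to 9.68% in Lpin1+/+ and 4.22% to 6.14% in Lpin1-/- liver (-0.23 ± 0.575, adjusted p = 0.896). With either upstream exon all 3 fasted Lpin1-/- libraries lay above the other 9, although Errfi1 RPKM itself overlapped in every contrast. The change of the exon with feeding was not tested. The Errfi1 event with most reads of the rarer form, at chr4:150855468-150855685, was not called in fasted (0.65 ± 0.629, adjusted p = 0.544) or refed liver (0.41 ± 0.583, adjusted p = 0.800).

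In Tsc22d3, a 78-base exon at chrX:140592214-140592291, also not an exon of the gene in GENCODE M21, lies between the exons at chrX:140542105-140542156 and chrX:140598128-140598558. It was included in 0%, 0%, and 1.03% of transcripts in the 3 fasted Lpin1+/+ libraries and in 12.9% to 19.6% in fasted Lpin1-/- liver. The reads including it numbered 5, 0, and 0 and 21, 37, and 37. The log2 ratio was higher by 5.39 ± 0.760 (adjusted p = 0.00117, and 5.33e-04 to 0.0235 under 9 alternatives). In refed Lpin1-/- liver it was at 1.17% to 2.49% (1.88 ± 0.895 against Lpin1+/+ liver, adjusted p = 0.383). The other 4 called Tsc22d3 events are nested forms of 1 exon that starts at chrX:140542105 and is 52 to 77 bases long. With the flank at chrX:140542846-140543187, its skipping was read 63, 23, and 30 times in fasted Lpin1-/- liver and 0 times in each fasted Lpin1+/+ library (log2 ratios of -5.72 to -5.65, adjusted p of 0.00116 to 0.00137). Inclusion of the 52-base form with that flank was 93.3% to 98.0% in fasted Lpin1-/- liver. With the flank at chrX:140598128-140598558, the 52-base form was skipped in 0, 4, and 0 reads there and was not called (-0.73 ± 1.05, adjusted p = 0.697). All 5 called Tsc22d3 events kept the call under each of their 9 alternatives.

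In Fkbp5, an exon of 137 bases at chr17:28434222-28434358, which overlaps an annotated exon, was included in 0% to 0.300% of transcripts in fasted Lpin1+/+ and 1.94% to 4.92% in fasted Lpin1-/- liver (3.50 ± 0.730, adjusted p = 0.00890). The call was lost without 1 of the 3 fasted Lpin1-/- libraries, the second in the deposited list (adjusted p = 0.0538). In refed liver the levels were 0.363% to 1.34% and 2.45% to 7.59%, again without overlap, and the difference was not called (2.76 ± 0.702, adjusted p = 0.101). A 60-base form of the same exon (3.15 ± 0.728, adjusted p = 0.0150) and a 138-base exon at chr17:28439776-28439913 outside the annotation (3.54 ± 0.986, adjusted p = 0.0360) were called in fasted liver, and lost the call under 4 and 6 of 8 alternatives (up to 0.0721 and 0.173). The latter was read 8, 11, and 13 times in fasted Lpin1-/- liver and 0 times in Lpin1+/+ liver.

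The 2 called Ddit4 events share the exon start at chr10:59951317 and differ in their end. Both were included in at least 99.9% of transcripts in all 6 fasted libraries, with 0 skipping reads in 5 of them and 4 in the other. With skipping at 0, the log2 ratios (4.70 ± 1.07 and 4.75 ± 1.08) follow the number of including reads, and so the level of the gene. Both calls were lost under 4 of 9 alternatives.

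In Zbtb16, a 201-base exon at chr9:48797723-48797923 that is no exon of the gene in GENCODE M21 was the event with most reads of the rarer form. It was included in 17.5% to 50.3% of transcripts in fasted Lpin1+/+ and 33.0% to 82.9% in fasted Lpin1-/- liver, which overlapped (1.54 ± 0.883, adjusted p = 0.292). In refed liver it was included in 14.3%, 46.9%, and 11.2% of Lpin1+/+ and 70.2%, 83.3%, and 77.7% of Lpin1-/- transcripts. The refed event was not tested, since 1 Lpin1+/+ library had 7 including and 2 skipping reads. For Klf9 (0.88 ± 0.941, adjusted p = 0.586), Sgk1 (1.81 ± 0.983, adjusted p = 0.268), Nr3c1 (-2.27 ± 0.897, adjusted p = 0.128), and Fbxo32 (0.21 ± 0.987, adjusted p = 0.912), the event with most reads of the rarer form was not called in fasted liver, and its rarer form had a mean of 3.33 reads or less. Trim63 had no event in either table.

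**Figure D5:**
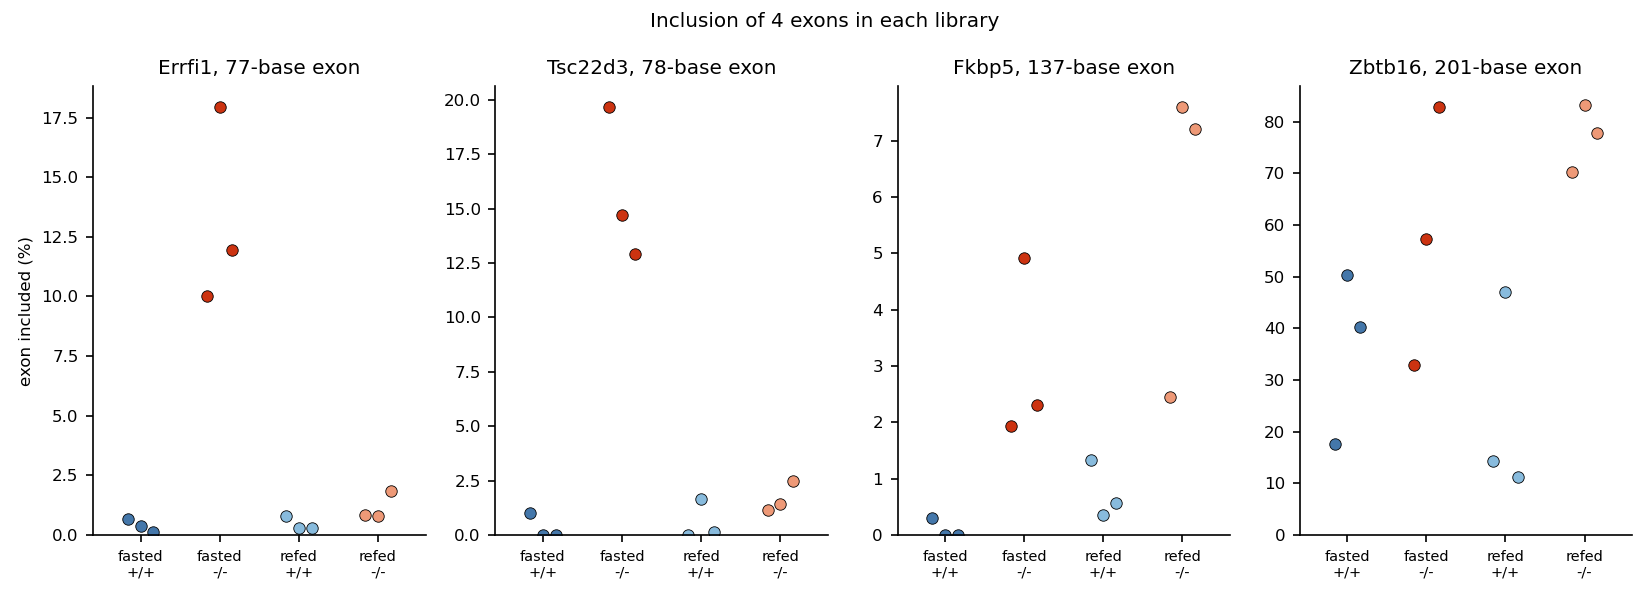
Percent of transcripts that include 4 exons of Errfi1, Tsc22d3, Fkbp5, and Zbtb16, each between 1 pair of flanking exons (for Errfi1 with the upstream exon at 150855073 to 150855271), from length-normalised read counts, with 1 point a library in each group and a separate scale from 0 in each panel. The Errfi1 and Tsc22d3 exons reach 10.04% to 17.9% and 12.9% to 19.6% in fasted Lpin1-/- liver and stay at 2.49% or less in the other 9 libraries between these flanks, and the Zbtb16 exon lies at 70.2% or more in refed Lpin1-/- liver.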

How the data were processed

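Liver RNA of 12 mice was sequenced by the authors as stranded TruSeq libraries with paired reads of 69 bases. Per the labels, HISAT2 2.0.5, HTSeq 0.6.0, and DESeq2 1.20.0 were among the tools used. RPKM values per gene were deposited by the authors, and skipped-exon tables deposited by the authors give counts of including and skipping reads per library. The exon tables list libraries without replicate numbers, so a library is named there by its place in the list. The authors' own p-values, fold changes, and tables of selected genes were not used, and 0 columns of other samples were found.

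The 11507 genes whose mean reached 0.5 RPKM were fitted on the log2(RPKM + 1) scale in 1 limma 3.58.1 fit (R 4.3.3) of the 4 groups without covariates, with Benjamini-Hochberg adjustment at 0.05. Exon events in which each library had 10 counts or more were compared within a feeding state as log2 ratios per effective length, with 0.5 added to each count. Whole reads were recovered from RPKM to give depth, and intervals cover counting error only. The fits were tested on simulated data. Replicates were separate mice, and an exact permutation test of 3 against 3 cannot go below p = 0.1. Positions are GRCm38 with GENCODE M21 genes, and promoter windows are from RefSeq (GRCm38.p6).

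The 10 genes and all lists were chosen with earlier results of these data known. All 10 genes are described, the genes most like each are the 2 with the highest Pearson's r (1 of them is not reported here), and from each list and contrast the 2 called genes of each direction with the largest fold changes are named where their groups do not overlap. For exons, every called event is named, and in each gene the event with most reads of its rarer form. Ptges3, Atf4, Eif4ebp1, Akt1, Ywhab, Pck1, G6pc, and Ppargc1a were added after their values were seen. So were the markers Tnnt3, Tnnc2, Actn3, Pvalb, Atp2a1, Dcn, Spp1, Pecam1, and Stab1, and values of Txnip and Igfbp1 per library. The alternatives tried were 0.1 in place of 1 on the log scale, dropping the filter or raising it to 5 RPKM, rescaling by median ratio, only the 6 libraries compared, the replicate number as a block, leaving out each library, and for exons 1 added or minimums of 20 or 50 counts. A voom fit of the recovered reads and a minimum mean of 5 counts of the rarer exon form were chosen after seeing the data. Scripts ran in Python 3.11.15.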

Additional observations from a re-analysis of the deposited data

Results flagged for a closer look

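The feeding responses of the 2 genotypes differed by the interaction test of limma (adjusted p under the threshold of 0.05) for 3 listed genes outside the 10 members. Sesn1 had a difference of -3.47 ± 0.474 on the log2 scale (adjusted p = 0.00913), with 23.6, 24.5, and 48.3 RPKM in fasted Lpin1-/- liver and 1.75 to 5.07 RPKM in the other 9 libraries, and it stayed past the threshold without each library in turn (adjusted p up to 0.0383). Txnip had a difference of -2.49 ± 0.507 (adjusted p = 0.0398), lost without any of 10 libraries (up to 0.0932). Fabp4 had a difference of -2.26 ± 0.479 (adjusted p = 0.0460), lost without any of 10 libraries (up to 0.110).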

How the results depend on the processing

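Of 685 alternative values of the members' 50 fold changes, 667 moved by less than the replicate SD and 18, of Trim63 and Fbxo32, moved further. The sign changed in 27 of the 685, in 13 fold changes of 8 genes, and 6 of these changes came without replicate 1 of fasted Lpin1+/+ liver. None of the 13 was past the threshold. Members called between fasted genotypes and on refeeding Lpin1-/- mice numbered 4 and 4, and 2 and 2 at a mean of at least 5 RPKM, where Trim63 and Fbxo32 were not tested. Leaving out each library gave 3 to 5 and 3 to 4. Between refed genotypes 0 were called, and 1 (Fkbp5) with only the 6 libraries compared, with 0 to 1 over left-out libraries. The interaction was called for 1, and for 0 with no filter, at 5 RPKM, and by voom, with 0 to 1 over left-out libraries. On refeeding Lpin1+/+ mice 0 were called throughout (0 to 0).

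Of the 52 listed targets, 4 were called on refeeding Lpin1+/+ mice, 2 with no filter, 2 with the replicate block, and 0 with only the 6 libraries (0 to 4 over left-out libraries). The interaction gave 2, 1 with no filter, and 4 after rescaling (1 to 3). Left-out libraries gave 20 to 30 between fasted genotypes, 9 to 14 between refed genotypes, and 10 to 22 on refeeding Lpin1-/- mice. Called exon events numbered 11 in fasted liver and 6 to 11 over left-out libraries, the lowest without the second fasted Lpin1-/- library, and 0 to 0 in refed liver. The cause of these moves was not tested, except where genes went untested.

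Over 18 same-number pairs of libraries, the correlation of deviations from the group mean ran from -0.47 to 0.74, and 8 were over 0.1. It was 0.74, 0.54, and 0.39 for fasted Lpin1+/+ with refed Lpin1-/- liver, and -0.47, -0.37, and -0.23 between fasted genotypes. Pairs of different number were not compared, so these values cannot decide whether the numbers pair the samples. With the number as a replicate block, 4 members were called between fasted genotypes and 3 on refeeding Lpin1-/- mice. Trim63 in 9 libraries is limited by depth, with 17 reads or fewer.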
